A study of Arabidopsis thaliana with 8 samples.

Results

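The comparison described here is that of ribosome footprints in Arabidopsis thaliana leaves given elf18 with those in mock-infiltrated leaves. It holds 4 of the series' 8 libraries, chosen by their labels: 2 elf18 and 2 mock footprint libraries, counted over coding sequences. The other 4 are RNA-seq libraries from the same lysates and are used only to show where footprints differ from RNA. The plants were 3 weeks old, of the Col-0 ecotype, and their leaves received 10 µM elf18 or, as mock, 10 mM MgCl2. All plants of both groups carried the transgene 35S:uORFsTBF1-LUC, in which the constitutive 35S promoter drives luciferase behind the upstream open reading frames of TBF1. Each library came from 1 lysate that pooled tissue of about 24 plants, 2 leaves a plant. The time from infiltration to harvest is not given in the sources used here. Nothing in the labels says that the lysates of a group came from separate experiments, so the p-values measure the spread between these pooled samples.

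elf18 is the acetylated amino end of bacterial elongation factor Tu, and it is sensed at the plant cell surface by the receptor kinase EFR. EFR signals with co-receptor kinases through calcium influx, a burst of reactive oxygen, and calcium-dependent and MAP kinases, and these reprogramme gene expression towards defence. In ribosome profiling, RNA outside translating ribosomes is digested, and the protected fragments are sequenced. The number of footprints on a coding sequence depends on how much of its mRNA is present and how densely ribosomes occupy it. In whole leaves, a change of footprints within cells and a change in the number of cells of a type cannot be told apart.

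The footprint libraries held 4752563 and 6717946 coding-sequence counts in mock and 6202819 and 5272725 with elf18. RCA, which encodes Rubisco activase, had the most footprints in all 4 libraries, 1.39% to 1.81% of them. In each group 1 library was the sparser, mock replicate 1 and elf18 replicate 2. In the mock pair, 495 genes had no count in replicate 1 and at least 50 in replicate 2, against 17 genes the other way round. In the elf18 pair, 45 genes had no count in replicate 1 only and 187 in replicate 2 only by the same measure. Of the genes tested below, 2067 and 23 had no count in mock replicates 1 and 2, and 205 and 1334 in elf18 replicates 1 and 2. On the log scale the replicates correlated with r = 0.796 in mock and 0.795 with elf18. Leaf identity was checked with markers. The 5 mesophyll markers took 3.21% and 3.36% of footprints in mock and 2.53% and 2.61% with elf18. Root, flower and seed markers took at most 0.00372% in any library, with 4 of the 8 genes at 0 in all 4. Guard cell markers took 0.292% and 0.305% in mock and 0.326% and 0.320% with elf18, although 5 of the 7 had a log2 change below 0 (median -0.28). Epidermis and trichome markers took 0.0911% and 0.104% against 0.0737% and 0.0725%. Vascular markers overlapped, at 0.0421% to 0.0562% in mock and 0.0412% to 0.0474% with elf18. None of the markers rose, and 1, the Rubisco small subunit gene RBCS1A, fell; the part of cell composition in the results below was not tested.

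The called genes leaned upwards. Of 14446 genes tested, 374 rose (2.59%) and 24 fell (0.166%), so that 398 were called in all (2.76%), at an adjusted p under 0.05 by edgeR's quasi-likelihood test. DESeq2 called 638 risen and 217 fallen genes, and limma voom 485 and 108. The median log2 change was 1.76 over the risen genes and -0.76 over the fallen genes. The median of all genes was 0.01 with TMM scaling, which by design places most genes near 0, and -0.085 with library totals only. In every called gene the 2 elf18 values lay wholly above or wholly below the 2 mock values. Among all tested genes, 19.3% had elf18 values wholly above mock and 19.9% wholly below. The risen genes, which this same contrast selected, took 6.96% and 7.40% of all footprints in mock and 18.5% and 18.7% with elf18. Calls depended on level, expressed as CPM, counts scaled to library size with TMM factors. None of the 5135 genes under a mean of 10 CPM was called, against 105 of the 7473 at 10 to 100 CPM, 257 of the 1711 at 100 to 1000 CPM and 36 of the 127 at 1000 CPM or more. The median standard error of the log2 change was 2.39 in the lowest class and 0.12 in the highest. Calls by level were counted in this edgeR fit only. The parts of depth and of spread between libraries in this were not tested. The numbers of calls also depended on single libraries: without mock replicate 2, 1085 genes rose and 329 fell, without mock replicate 1, 484 and 47, without elf18 replicate 1, 381 and 139, and without elf18 replicate 2, 349 and 12.

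**Figure D1:**
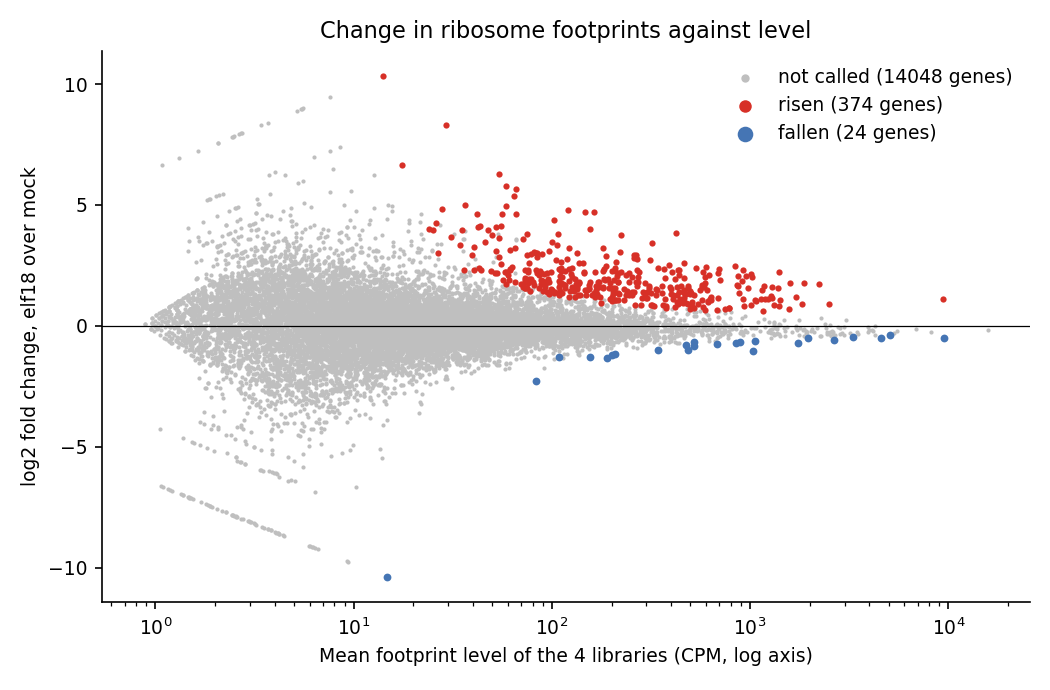
Each point is 1 of the 14446 tested genes, with its mean footprint level over the 4 libraries (CPM, log axis) against its log2 fold change, elf18 over mock. The 374 risen genes (red) begin at about 10 CPM, and the 24 fallen genes (blue) lie mostly above 100 CPM.

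The receptor itself and the transcription factor whose leader is in the transgene gave no call. EFR had 92.0 and 76.3 CPM in mock and 92.8 and 129.4 CPM with elf18, a log2 change of 0.40 ± 0.31 (± standard error, as in all later values; n = 2 libraries a group; adjusted p = 0.988). Only its elf18 replicate 2 stood clearly above mock. TBF1, listed under the symbol HSF4, had 100.5 and 95.9 CPM in mock and 116.4 and 129.6 CPM with elf18 (log2 0.33 ± 0.28, adjusted p = 1). FRK1, a receptor kinase gene often used as a marker of this response, had 3 footprints in 1 library of each group and none in the others, and could not be tested.

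The 10 largest gains of footprints fell on genes of several kinds, among them PEN3, PEN2 and LOX4. AT1G59870, which encodes the ABC transporter PEN3 of penetration resistance, had 6057 and 5797 CPM in mock and 12869.8 and 12650.3 CPM with elf18. Both elf18 values were about 2.15-fold the mock level (log2 1.11 ± 0.07, adjusted p = 8.4e-06), the largest gain of CPM of all risen genes. AT2G44490, the myrosinase PEN2 that acts on indole glucosinolates, had 631 and 629 CPM in mock and 1926 and 1942 CPM with elf18 (log2 1.62 ± 0.12). LOX4, a 13-lipoxygenase of jasmonate synthesis, had 766 and 916 CPM in mock and 2841 and 2916 CPM with elf18 (log2 1.77 ± 0.12). The replicates of each of these genes lay close together and the groups far apart. The related CCCH zinc finger genes SZF1 and CZF1 rose by 1.74 ± 0.11 and 2.18 ± 0.15 on the log2 scale. SZF1 reached 3282 and 3576 CPM, from 1087 and 962 in mock. PUP14 and PUP18, of the purine permease family, rose by 1.78 ± 0.12 and 1.58 ± 0.12, and HSPRO2, named for its likeness to a beet nematode resistance gene, by 0.90 ± 0.11. The remaining genes of large gain were AT5G35735 (log2 2.25 ± 0.12) and ACA.l (log2 2.14 ± 0.15), whose roles are not stated here, and the exocyst gene EXO70H7, described with the secretory genes. PER4, a class III peroxidase of the cell wall, had the smallest p of all genes: 53.6 and 55.8 CPM in mock became 772 and 809 CPM with elf18, a 14.5-fold rise (log2 3.85 ± 0.19, adjusted p = 1.7e-06).

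**Figure D2:**
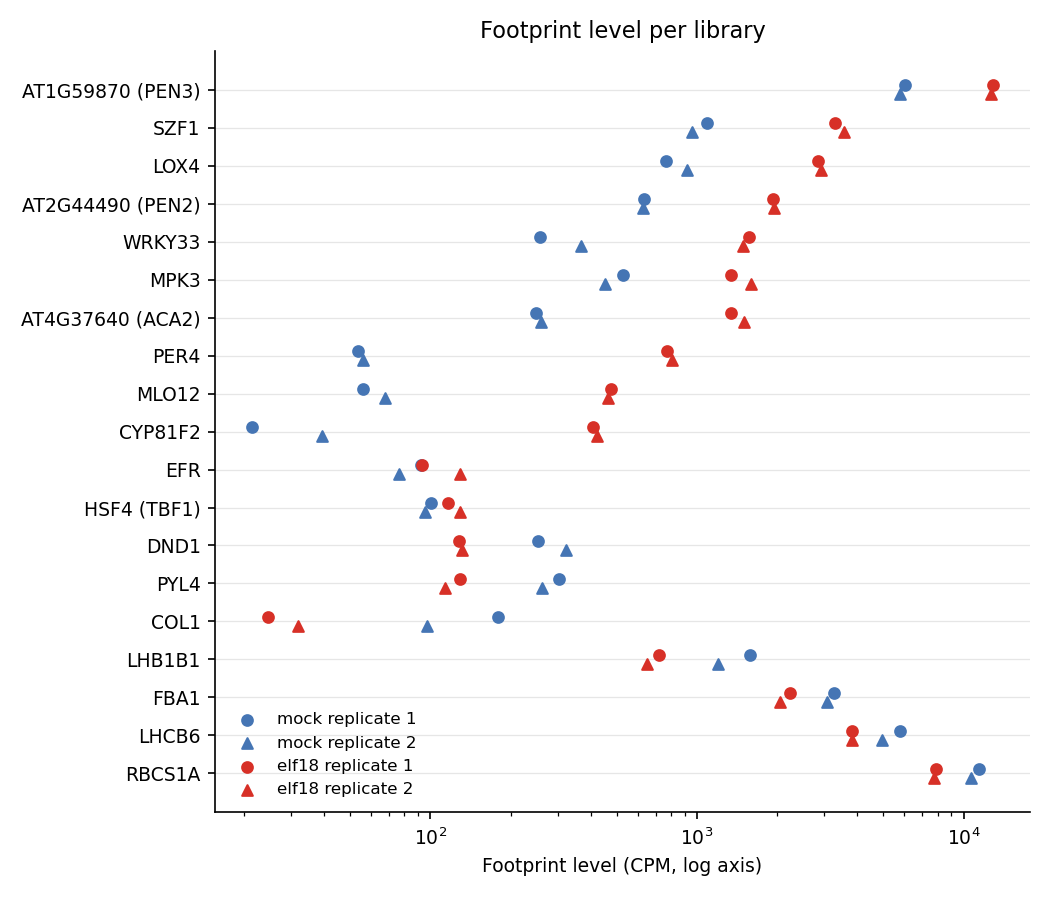
Footprint level (CPM, log axis) of 19 named genes in the 4 libraries, blue for mock and red for elf18, with circles for replicate 1 and triangles for replicate 2. From AT1G59870 to CYP81F2 both elf18 points lie to the right of both mock points, EFR and HSF4 lie close to mock, and from DND1 to RBCS1A both elf18 points lie to the left.

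Some genes had almost no footprints in mock. PROPEP3, which encodes the precursor of a danger peptide sensed by the PEPR receptors, had 0 counts in both mock libraries and 186 and 129 counts with elf18. Taking 3 counts as the limit for the mock group, this was at least 105-fold higher. GLR2.9, of the glutamate receptor-like channels, went from 0 and 2 counts to 261 and 368 counts, a ratio of 314 with a counting interval of 86.7 to 2602 (95%, exact binomial, counting error only). AT4G18540 went from 0.209 and 2.27 CPM to 111 and 102 CPM (log2 6.29 ± 0.73), AT5G11140 from 2.92 and 2.12 to 121 and 136 CPM (log2 5.68 ± 0.47), and AT4G04480 from 5.21 and 1.13 to 113 and 137 CPM (log2 5.35 ± 0.63); no role is stated for these 3 loci. AT4G22030, likewise without a stated role, and DMP1, a membrane protein gene linked to senescence, rose by 6.63 ± 1.17 and 5.79 ± 0.89. In each of these genes both elf18 libraries were high and both mock libraries at or near 0. With limma voom in place of edgeR, PROPEP3, GLR2.9, AT4G22030, AT4G18540, DMP1 and WAKL10 were not called (adjusted p 0.101 to 0.369). DMP1 and WAKL10 were not called by DESeq2 either (0.118 and 0.235), nor WAKL10 at a mean of at least 50 counts (0.0646).

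Among receptor kinase families, a minority of members passed the test, and all that did had risen. Beside these and the later list counts stand the shares over all genes tested, 2.59% risen and 0.166% fallen. Of 42 cysteine-rich receptor-like kinases (CRKs), a plant family with 2 extracellular cysteine-rich domains, 32 were measured, 4 rose and none fell (median log2 0.89). CRK11 had 156 and 162 CPM in mock and 407 and 432 CPM with elf18 (log2 1.40 ± 0.19), and CRK10 209 and 376 CPM against 816 and 842 CPM (log2 1.50 ± 0.23). CRK14 rose by 1.57 ± 0.25, and AT1G70530 by 2.84 ± 0.66, from 4.17 and 22.1 CPM to 70.2 and 121 CPM. The last of these calls was lost without elf18 replicate 2 (log2 2.44, adjusted p = 0.0745), by DESeq2 (0.0921), with library totals only (0.0727) and at a mean of at least 50 counts (0.0971). Of 13 wall-associated kinases and relatives, some of which bind pectin, 8 were measured and 3 rose (median 2.08): WAKL10 by 5.01 ± 1.05, WAKL4 by 3.81 ± 0.40 and WAKL2 by 1.89 ± 0.27. WAKL4 had 11.7 and 8.35 CPM in mock and 154 and 126 CPM with elf18. Of 45 lectin receptor kinases, 22 were measured and 6 rose (median 0.99). LECRKA4.1 had 60.5 and 55.4 CPM in mock and 367 and 358 CPM with elf18 (log2 2.65 ± 0.23). AP4.3A rose by 1.05 ± 0.17, AT1G15530 by 1.47 ± 0.27 and LECRKA4.3 by 3.96 ± 0.76, the last not called without elf18 replicate 1 (adjusted p = 0.0881), by limma voom (0.26) or with a spread shared by all 8 libraries (0.0515). Of 24 listed intracellular NLR receptors, which sense effectors inside the cell, 21 were measured. Of these ZAR1 alone rose, by 0.84 ± 0.14, from 961 and 1039.5 CPM to 1559.8 and 2023 CPM. The NLR median was 0.26, and 1 call in a list of this size is not far from the share over all genes.

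A minority of the calcium signalling genes passed the test, and 1 of those fell. Of 38 measured pumps and channels, 7 rose and 1 fell (median 0.74). The autoinhibited calcium pump gene AT4G37640 (ACA2), whose product exports calcium from the cytosol, had 249 and 260.2 CPM in mock and 1339 and 1498 CPM with elf18 (log2 2.48 ± 0.15). Its relative AT1G27770 (ACA1) had 807 and 803 CPM in mock and 1673 and 1898 CPM with elf18 (log2 1.15 ± 0.13). The cyclic nucleotide-gated channel gene CNGC13 rose by 2.35 ± 0.31. DND1, which encodes the channel CNGC2, was the member that fell: 253 and 322 CPM in mock became 128 and 132 CPM (log2 -1.15 ± 0.23, adjusted p = 0.0141). In both pumps and in DND1 the gap between the groups was wider than that between replicates. Of 23 measured calcium-dependent kinases, 3 rose (median 0.89): CPK32 from 376 and 445 CPM to 1253 and 1371 CPM (log2 1.68 ± 0.15), CPK28, a brake on BIK1 accumulation, by 1.10 ± 0.13, and CPK9 by 1.82 ± 0.25. Of 9 measured calmodulin-like sensors, CML42 rose by 3.07 ± 0.38 and TCH3 by 0.63 ± 0.13 (median 0.81). TCH3 was not called without elf18 replicate 1 (log2 0.62, adjusted p = 0.0613) or with library totals only (0.0517).

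In the MAP kinase cascade, which relays receptor activation to transcription factors, 6 of 43 measured genes passed, all of them higher with elf18, and the list median was 0.10. MPK3, a terminal kinase of the immune cascade, had 530.1 and 451 CPM in mock and 1342 and 1597 CPM with elf18 (log2 1.58 ± 0.15). MKK4, which phosphorylates MPK3 and MPK6, had 11.3 and 29.2 CPM in mock and 131 and 214 CPM with elf18 (log2 3.08 ± 0.46). MAPKKK5, an upstream kinase, and MPK11, a close relative of MPK4, rose by 1.45 ± 0.23 and 2.17 ± 0.34. All 4 had elf18 values wholly above mock.

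Transcription factor families differed in how many members passed. Over all genes tested 2.59% rose, and the 1 risen MYB gene of 32 measured is near that share. Of 72 WRKY genes, 37 were measured, 8 rose and none fell (median 1.02). WRKY33, a regulator of camalexin synthesis, had 258 and 368 CPM in mock and 1572 and 1491 CPM with elf18 (log2 2.29 ± 0.18, adjusted p = 1.68e-05). WRKY11, a negative regulator of basal resistance, had 103 and 157 CPM in mock and 806 and 783 CPM with elf18 (log2 2.61 ± 0.22). WRKY53 rose by 2.25 ± 0.29 and WRKY40 by 1.50 ± 0.20. The family as a whole took 0.250% and 0.259% of footprints in mock and 0.629% and 0.613% with elf18. All 8 listed ZAT and AZF zinc finger genes, C2H2 repressors of stress responses, were measured. Of these 6 rose, and the 8 log2 values ran from 0.89 to 3.36 (median 1.72). ZAT11 had 42.5 and 28.5 CPM in mock and 315 and 339.8 CPM with elf18 (log2 3.21 ± 0.28). STZ rose by 1.35 ± 0.16, RHL41 by 1.72 ± 0.33 and ZAT6 by 1.73 ± 0.39, and ZAT6 was not called without elf18 replicate 1 (log2 1.37, adjusted p = 0.311), with library totals only (0.0535) or at a mean of at least 50 counts (0.054). Of 18 measured ERF genes, ERF6 and ERF11 rose, by 1.68 ± 0.36 and 1.82 ± 0.39, ERF11 not without elf18 replicate 1 (adjusted p = 0.151) and ERF6 not at a mean of at least 50 counts (0.0552). Of 38 measured NAC genes, 4 rose: NAC062 by 1.52 ± 0.22, NAC036 by 2.85 ± 0.47, NAC102 by 1.47 ± 0.27 and NAC090 by 2.24 ± 0.47. MYB15, an activator of lignin synthesis in immunity, was the 1 MYB gene of 32 measured that rose (log2 2.34 ± 0.41), and was not called without elf18 replicate 2 (adjusted p = 0.0674). In the B-box family, which includes CONSTANS-like factors of light and flowering, 14 of 21 measured values were below 0 (median -0.52), against 49.3% of all genes. In 10 the elf18 values lay wholly below mock and in 2 wholly above, beside 19.9% and 19.3% of all genes. Only COL1 passed: 179 and 97.3 CPM in mock became 24.6 and 31.8 CPM (log2 -2.29 ± 0.39, adjusted p = 0.00491).

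**Figure D3:**
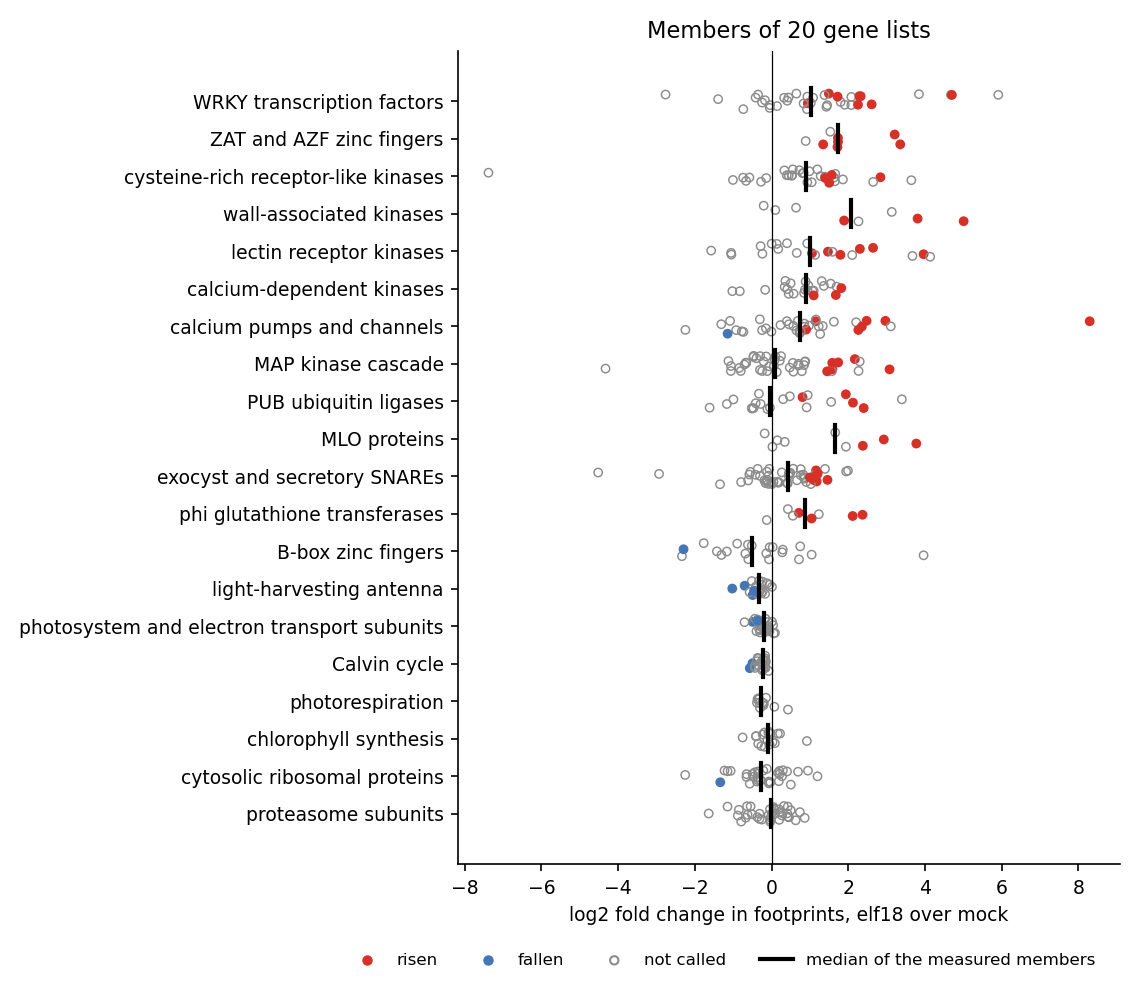
Log2 fold change in footprints of each measured member of 20 gene lists, elf18 over mock, with risen members in red, fallen members in blue, members that were not called as open circles and the list median as a black bar. The ZAT and AZF list lies wholly above 0, with a median of 1.72, and the Calvin cycle list wholly below, with a median of -0.23.

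Some members of the PUB, MLO, and exocyst and SNARE lists rose. Of 21 measured PUB ubiquitin ligases, 4 rose while the list median was -0.04. PUB22, PUB23 and PUB24 together attenuate responses to bacterial patterns. PUB23 had 148 and 177 CPM in mock and 701 and 717 CPM with elf18 (log2 2.12 ± 0.18), and PUB22 and PUB24 rose by 2.40 ± 0.31 and 1.94 ± 0.41. PUB24 was not called by DESeq2 (adjusted p = 0.0939) or at a mean of at least 50 counts (0.0645). PUB17, a positive regulator of cell death, rose by 0.81 ± 0.18, but was not called without either elf18 library (adjusted p 0.0799 and 0.139), with library totals only (0.0664) or with a spread shared by all 8 libraries (0.164). The 9 measured MLO genes had a median of 1.66, and the 3 that rose were MLO2, MLO6 and MLO12, which jointly allow powdery mildew entry. MLO12 had 55.9 and 67.8 CPM in mock and 476 and 466 CPM with elf18 (log2 2.93 ± 0.22). MLO2 had 129 and 216 CPM in mock and 900.1 and 894 CPM with elf18 (log2 2.38 ± 0.23), and MLO6 rose by 3.77 ± 0.49. The MLO list took 0.0374% and 0.0499% of footprints in mock and 0.164% and 0.1597% with elf18. Among 53 measured exocyst and secretory SNARE genes, which direct vesicles to the plasma membrane, 7 rose and none fell (median 0.42). EXO70H7 rose by 1.20 ± 0.12, EXO70B1 by 1.00 ± 0.15, and the syntaxin genes SYP121 and SYP122 by 1.11 ± 0.20 and 1.18 ± 0.18.

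Enzyme families of defence metabolism and wall remodelling changed at a few members each. Of 90 measured cytochromes P450, 5 rose and 1 fell, and the median was 0.01, equal to that of all genes. CYP81F2, which hydroxylates indole glucosinolates, had 21.5 and 39.1 CPM in mock and 408 and 420.3 CPM with elf18 (log2 3.76 ± 0.30). CYP71B5 rose by 3.01 ± 0.35, CYP706A1 by 1.13 ± 0.18 and CYP707A3, an abscisic acid hydroxylase, by 1.26 ± 0.21. Of 8 measured phi-class glutathione transferases 4 rose: GSTF6 by 2.12 ± 0.38, GSTF7 by 2.37 ± 0.56, GSTF8 by 0.71 ± 0.15 and GSTF10 by 1.05 ± 0.23. None of these 4 calls held in every fit that left out a library, and GSTF6 and GSTF7 are near-identical copies between which reads cannot be divided surely. GSTF6 and GSTF10 were not called without elf18 replicate 2 (adjusted p = 0.147 and 0.173), nor GSTF7 and GSTF8 without elf18 replicate 1 (adjusted p = 0.087 and 0.11) or with library totals only (0.0761 and 0.0764). GSTF7 was also lost at a mean of at least 50 counts (0.0689). No tau-class member of 12 measured and no UDP-glycosyltransferase of 35 was called. Of 32 measured expansins and xyloglucan hydrolases, 4 rose, all of the xyloglucan type: TCH4 from 428 and 361 CPM to 1458 and 1376 CPM (log2 1.85 ± 0.15), XTH18 by 2.17 ± 0.24, XTH24 by 1.29 ± 0.19 and XTR6 by 1.52 ± 0.27. Of 14 measured phenylpropanoid enzymes PAL2 rose by 0.65 ± 0.15, and was not called without elf18 replicate 1 or 2 (adjusted p = 0.0844 and 0.266) or with library totals only (0.103). Of 32 measured members of the Aux/IAA and SAUR list, AT5G01830, which the locus table lists as SAUR21, rose by 2.75 ± 0.22. That symbol may not match the usual identity of the gene, so its place in this list is uncertain and no role is stated. This 1 call is near the 2.59% of all genes tested that rose. No member of the proteasome, histone, response regulator, tubulin and actin, shikimate pathway, endoplasmic reticulum folding or elongation factor lists was called, with 38, 15, 12, 21, 11, 9 and 11 measured. Since 2.76% of all genes were called, lists of these sizes can easily hold none, as can the tau-class and UDP-glycosyltransferase lists. Of the tubulin and actin genes, 13 lay wholly below mock and 1 wholly above, beside 19.9% and 19.3% of all genes.

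Most antenna, Calvin cycle and photosystem genes had lower footprint values with elf18, by small amounts, and 8 of them passed the test. Of 20 light-harvesting antenna genes, 19 had a log2 change below 0 and 15 had both elf18 values below both mock values (median -0.32). For the Calvin cycle, the carbon fixation pathway, these counts were 21 and 15 of 21 (median -0.23), and for photosystem and electron transport subunits 27 and 20 of 31 (median -0.20). Among the 127 tested genes at 1000 CPM or more, 66.9% had a log2 change below 0 and 52.8% had elf18 values wholly below mock. The median change of that class was -0.15. The class holds members of these lists, among them RBCS1A, LHCB6 and PSBO1, so it is not a separate yardstick for them. Among all genes tested, 49.3% had a log2 change below 0 and 19.9% had elf18 values wholly below mock, with a median of 0.01. The antenna list took 4.99% and 4.71% of footprints in mock and 3.58% and 3.58% with elf18, the Calvin cycle list 6.16% and 6.26% against 4.69% and 4.69%, and the photosystem list 5.92% and 5.57% against 4.67% and 4.58%. The shares of photorespiration genes were 2.73% and 2.62% against 2.22% and 2.14%, with no gene called, and those of chlorophyll synthesis genes 1.57% and 1.62% against 1.23% and 1.35%. Of the 18 chlorophyll synthesis genes none was called, 13 were below 0 and 8 wholly below mock (median -0.10). A share also depends on the counts of all other genes, and the part of this in the lower shares was not tested. The shares were also taken without the risen genes, a step chosen after the data were seen. The risen genes were chosen by their rise in this same contrast, so leaving them out was bound to make these differences smaller. With the risen genes taken out of the total, the antenna share was 5.37% and 5.08% in mock and 4.39% and 4.41% with elf18. By this step the difference between elf18 and mock, in percentage points, went from -1.27 to -0.823 for the antenna and from -1.51 to -0.922 for the Calvin cycle. For photosystem subunits it went from -1.12 to -0.508, for photorespiration from -0.496 to -0.205 and for chlorophyll synthesis from -0.305 to -0.133.

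**Figure D4:**
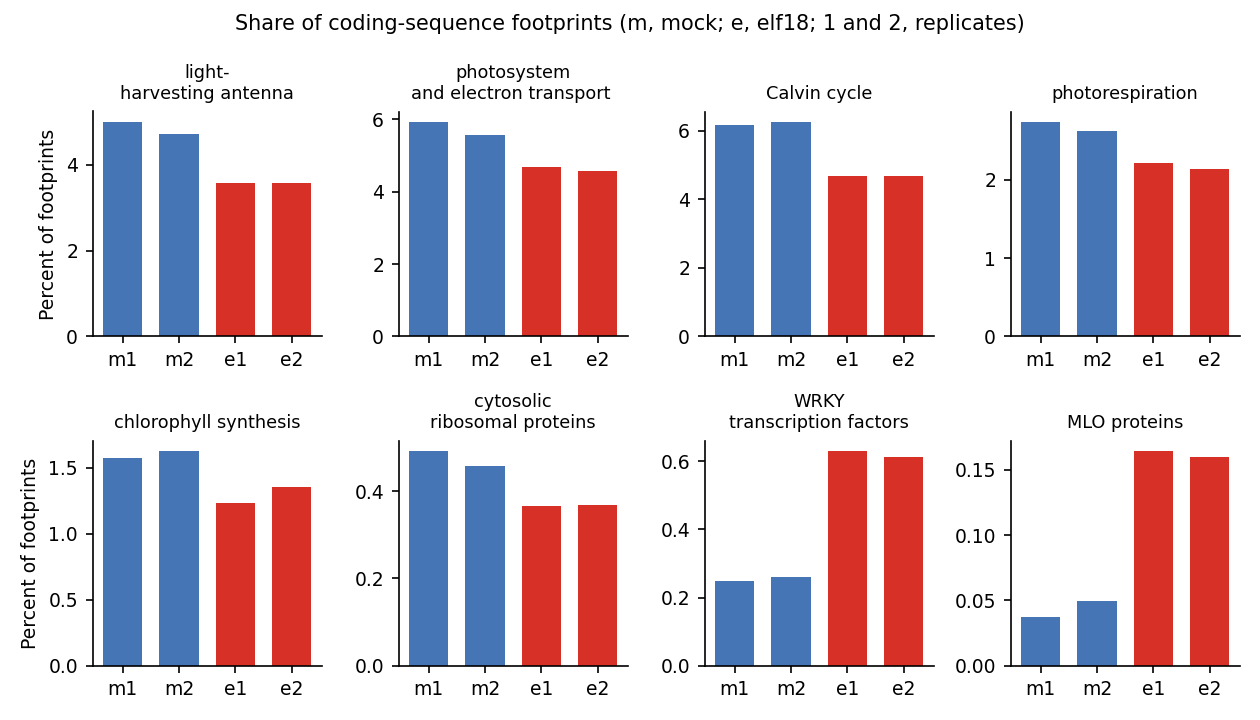
Percent of all coding-sequence footprints that fell on 8 gene lists in each library (m, mock; e, elf18; 1 and 2, replicates); each panel has its own axis, which starts at 0. The bars of the 3 photosynthesis lists are lower in both elf18 libraries, at 3.58% to 4.69%, than in both mock libraries, at 4.71% to 6.26%, and the WRKY and MLO bars are higher.

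Of these lists, 8 genes passed the test on their own. RBCS1A, a Rubisco small subunit gene, had 11480.3 and 10652.5 CPM in mock and 7917 and 7757 CPM with elf18 (log2 -0.50 ± 0.07, adjusted p = 0.00145). The fructose-bisphosphate aldolase gene FBA1 had 3274 and 3073 CPM in mock and 2238 and 2045 CPM with elf18 (log2 -0.57 ± 0.10). In both genes the replicates lay close together and the groups did not overlap. The antenna genes that fell were LHB1B1 (log2 -1.02 ± 0.16), LHB1B2 (log2 -0.70 ± 0.11), LHCB6 (log2 -0.49 ± 0.09) and LHCB3 (log2 -0.46 ± 0.11). LHB1B1 had 1580.2 and 1201 CPM in mock and 721 and 647 CPM with elf18. The others were PSBO1, of the oxygen-evolving complex (log2 -0.36 ± 0.08), and FED A, which encodes ferredoxin (log2 -0.49 ± 0.11). Members of the LHCB1 and Rubisco small subunit families are near-identical, so reads may be shared between copies. RBCS1A and LHB1B1 were called in each of the 12 alternative fits. Without elf18 replicate 2, LHB1B2, LHCB6, FBA1, LHCB3, PSBO1 and FED A were not called (adjusted p 0.056 to 0.958), and without elf18 replicate 1, PSBO1 and FED A were not (0.326 and 0.0799). With median-ratio factors PSBO1, FED A and LHCB3 were not called (adjusted p = 0.11, 0.0715 and 0.0762), nor LHCB3 and FED A at a mean of at least 50 counts (0.0771 and 0.0527), nor PSBO1 without a filter (0.0863).

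The other 16 fallen genes were of mixed roles; those outside the naming rule were added after their values were seen, because the fallen genes are few. ERD5, a proline dehydrogenase gene, had 1281 and 1299.9 CPM in mock and 834 and 833 CPM with elf18 (log2 -0.63 ± 0.13). HOG1, which encodes the S-adenosylhomocysteine hydrolase of the methyl cycle, had 1119.8 and 985 CPM in mock and 662 and 619 CPM with elf18 (log2 -0.72 ± 0.14). PYL4, an abscisic acid receptor gene, had 303 and 263 CPM in mock and 129.5 and 113 CPM with elf18 (log2 -1.22 ± 0.22), and EBF2, an F-box gene that restrains ethylene signalling, fell by 1.30 ± 0.30. All 4 were lower in both elf18 libraries. ATCTH, a tandem CCCH zinc finger gene, fell by 1.29 ± 0.26, and EMB2296, a gene for a cytosolic ribosomal protein of the large subunit, by 1.34 ± 0.30. EMB2296 was the 1 called gene of the 34 listed ribosomal protein genes, which need not be the whole family. The share of the list went from 0.491% and 0.457% to 0.367% and 0.368% (list median -0.29). CYP94C1, a cytochrome P450 that oxidises jasmonoyl-isoleucine, fell by 0.99 ± 0.17, the cold-responsive gene LTI78 by 1.00 ± 0.19, the clock gene TIC by 0.78 ± 0.19 and HMG1, for HMG-CoA reductase, by 0.68 ± 0.16. SIP2, a raffinose-family hydrolase gene, fell by 0.67 ± 0.13, the multicopper oxidase-like gene sks5 by 0.73 ± 0.15 and AT2G20670, with no stated role, by 0.85 ± 0.17. DND1 and COL1 are given above. CLPS3, a gene for a polynucleotide kinase of mRNA 3′ end processing, had 208 and 109 counts in mock and none in either elf18 library, at least 105.7-fold lower if 3 counts are taken as the limit for the elf18 group. Of all 24 fallen genes, 10 were not called without elf18 replicate 1, 14 without elf18 replicate 2, 2 without mock replicate 1 and 1 without mock replicate 2. Among the 16 given here, these were ERD5 and EBF2 (without elf18 replicate 1, adjusted p = 0.0779 and 0.0605; without elf18 replicate 2, 0.186 and 0.115), EBF2 also without mock replicate 2 (0.0931), HOG1 and EMB2296 without elf18 replicate 2 (0.174 and 0.165), ATCTH without elf18 replicate 1 (0.0579) and CLPS3 without mock replicate 1 (0.0946). They were also HMG1, SIP2, TIC, sks5 and AT2G20670 without elf18 replicate 1 (adjusted p = 0.14, 0.103, 0.222, 0.173 and 0.119), HMG1, SIP2, CYP94C1 and LTI78 without elf18 replicate 2 (0.365, 0.0923, 0.0592 and 0.0855) and TIC without mock replicate 1 (0.0581). CLPS3 was not called by limma voom (0.134), HMG1 and TIC not with median-ratio factors (0.0625 and 0.0662), and HMG1, TIC, EBF2 and EMB2296 not at a mean of at least 50 counts (0.0575 to 0.0881).

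Whether a footprint change differed from the RNA change of the same lysates was tested as an interaction over all 8 libraries. This fit had no term for the lysate that a footprint and an RNA library share; the lysate was a block only in an alternative fit. None of 16177 genes passed by edgeR (0% called), while 725 had an unadjusted p under 0.05 (4.48%); DESeq2 called 42 with a larger and 34 with a smaller change in footprints. In RNA on coding sequences, 496 genes rose (3.07%) and 72 fell (0.445%). The called genes named below were chosen by their footprint change, which is also part of the interaction. A difference from RNA in the direction of that change was thus favoured beforehand, and the unadjusted p-values do not allow for this choice. Over all genes in this fit the median RNA log2 change was -0.13, and the median of footprint change minus RNA change was 0.16. The typical gene thus did not lie at 0 in either. For the antenna list the RNA median was -0.02, beside -0.32 in footprints, and 7 of 20 genes had an unadjusted interaction p under 0.05. LHB1B2 had RNA counts of 95921 and 49107 in mock and 62659 and 102672 with elf18, an RNA log2 change of 0.07, and its footprint change was lower by 0.75 (unadjusted p = 0.00011). That of RBCS1A was lower by 0.55 (unadjusted p = 0.000912) and that of LHB1B1 by 0.79 (unadjusted p = 0.00044). EMB2296 had an RNA log2 change of -0.10 and a footprint change lower by 1.20 (unadjusted p = 0.00291). CLPS3, without footprints after elf18, kept RNA counts of 95 and 115, beside 170.0 and 54 in mock (unadjusted p = 0.000302). In the other direction, AT1G70530 had a footprint change of 2.84 and an RNA change of 0.69 (unadjusted p = 0.0255), and NAC062 1.52 and 0.59 (unadjusted p = 0.0218). Strongly risen genes went both ways. The footprint change was the smaller for PER4, 3.85 against 4.90 in RNA (unadjusted p = 0.000244), for ZAT11, 3.21 against 4.25 (unadjusted p = 0.0117), and for MLO6, 3.77 against 5.29 (unadjusted p = 0.0234). It was the larger for PROPEP3, 10.34 against 4.48 (unadjusted p = 0.00454), and for GLR2.9, 8.29 against 4.22 (unadjusted p = 0.00762), both almost without footprints in mock. Over all risen genes the median difference was 0.01, beside 0.16 over all genes in the fit. By edgeR's adjusted p no such difference passed in this fit. Of the 21 named genes with an unadjusted interaction p under 0.05, 5 passed at an adjusted p under 0.05 by DESeq2. With the lysate as a block in edgeR, 3 of the 21 passed.

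**Figure D5:**
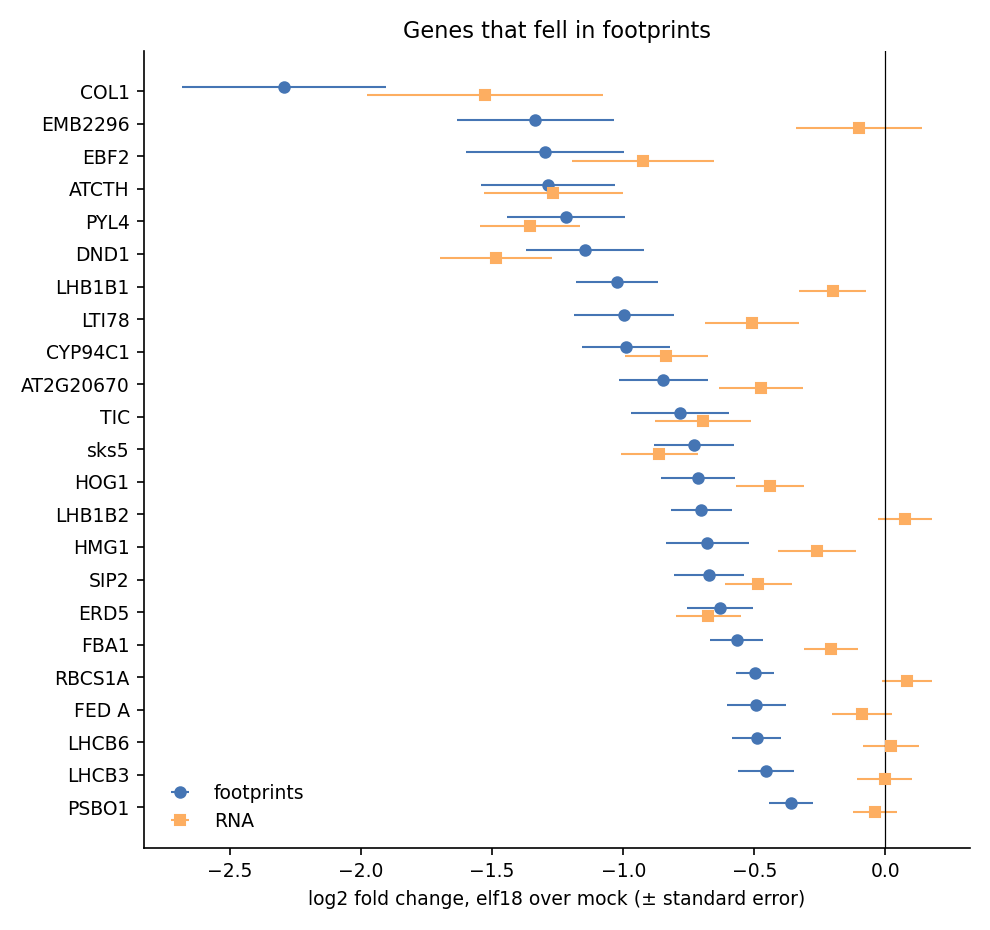
Log2 fold change, elf18 over mock, of 23 of the 24 genes that fell in footprints (blue circles) beside the change in RNA on coding sequences (orange squares), with standard errors from the edgeR fits; CLPS3, which has no footprint with elf18, is left out. For ERD5, PYL4 and DND1 both values lie well below 0, while for RBCS1A, LHB1B2 and EMB2296 the RNA value lies near 0. The genes were chosen by their fall in footprints, which favours a lower value in footprints than in RNA.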

How the data were processed

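The authors deposited whole-number counts of reads over each gene's coding sequence, with no normalization visible in the values, since library totals are unequal. CASAVA 1.8.2, Bowtie2 2.0, HTSeq and genome build TAIR10 are named per the submitters' processing notes; trimming, footprint lengths, strand setting and the treatment of multiply matching reads are not given in the sources used here. The table held 27172 genes, of which 62 with blank footprint values were left out, and no organelle genes. A separate table of exon counts was not used.

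Footprints were compared with edgeR 4.0.16 in R 4.3.3 (TMM, filterByExpr at a minimum of 10 counts, then the quasi-likelihood F-test of glmQLFit; 2 residual degrees of freedom), and the difference from RNA by an assay-by-treatment interaction term fitted to the 8 libraries together (4 residual degrees of freedom). A gene was called at an adjusted p under 0.05 (Benjamini-Hochberg over all genes tested). Both fits were tested on simulated data. With 2 libraries a group the smallest exact permutation p is 0.333, and no such test was run. Alternatives were median-ratio factors, library totals, other filters, DESeq2 1.42.0, limma voom 3.58.1, a spread shared by all libraries, a replicate block and each library left out.

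Symbols are those of a supplied RefSeq locus table, in which 26685 loci had an entry. The 44 gene lists (1620 members, 43 more dropped because the table gives them another identity) and the comparison itself were chosen with earlier results of these data known. Members were taken by locus or by matching symbols and synonyms, so a list need not hold every gene of a family. Lists are described by counts and medians, without a set test. Genes were named by rule: EFR, TBF1, FRK1 and WRKY33; the 10 called genes with the largest gain and the 10 with the largest loss of mean CPM; the 8 risen and 8 fallen genes with the largest log2 change at a mean of 10 CPM; the 10 with the smallest p; and up to 4 called members of each list. Of these, 3 genes of small p (AT4G29780, pEARLI4 and AT5G44070) rose by 2.01, 2.34 and 2.05 on the log2 scale. Intervals and limits from counts cover counting error only; the common biological coefficient of variation was 0.845.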

Additional observations from a re-analysis of the deposited data

How the results depend on the processing

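Of 102 named genes that were called, 70 kept their call in each alternative in which they were tested, none changed direction, and 66 single values lost it; lost calls are given in the report beside the genes. The risen genes numbered 374, with 349 to 1085 when 1 library was left out, 638 by DESeq2 and 570 with a replicate block. The fallen genes numbered 24, with 12 to 329 when 1 library was left out, 217 by DESeq2, 108 by limma voom, 108 with a replicate block, 52 with library totals only, 96 without a filter and 48 with a spread shared by all 8 libraries. Without mock replicate 2 the median of all genes moved to 0.26. Calls were 94.0% risen in edgeR, 74.6% by DESeq2, 81.8% by limma voom, 86.0% with library totals and 84.1% with the block. The replicate numbers were not taken as pairing mock with elf18. In the sample IDs, replicates 1 and 2 are numbered 2 and 3 in mock and 1 and 3 with elf18. The replicate block joined libraries by replicate number. Same-numbered footprint libraries of the 2 groups deviated together with r = -0.062. This value cannot decide on pairing, because the sparser library was replicate 1 in mock and replicate 2 with elf18. The causes of the differences between fits were not tested. For the difference from RNA, edgeR called 0 genes; left-out libraries gave 0 to 37 larger (37 without RNA elf18 replicate 1, 19 without footprint mock replicate 2) and 0 to 4 smaller changes, the lysate as a replicate block 1 and 5, and DESeq2 42 and 34. Over 83 named genes with an unadjusted interaction p of 0.05 or more, 107 of 830 alternative values had the other sign and none passed.

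The shares of footprints, as elf18 minus mock in percentage points, kept their sign in each alternative except for vascular markers, whose groups overlapped (-0.0048, and 0.00155 without the risen genes; positive also without mock replicate 1). Without the 10 genes of highest level they were -0.920 for the antenna, -0.809 for the Calvin cycle, -0.119 for chlorophyll synthesis, 0.391 for WRKY, 0.105 for ZAT and AZF, -0.105 for B-box genes and -0.067 for mesophyll markers. Without the risen genes in the total, an alternative chosen after seeing the data, they were -0.823 for the antenna, -0.508 for photosystems, -0.922 for the Calvin cycle, -0.205 for photorespiration, -0.133 for chlorophyll synthesis, -0.0593 for ribosomal proteins, -0.0795 for B-box genes, -0.381 for mesophyll, 0.0757 for guard cell and -0.0152 for epidermis markers. In the edgeR fit described first, no gene under 10 CPM was called, and calls by level were not counted in the alternatives. Depth and spread between libraries were not tested apart.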
